A study of Rattus norvegicus with 24 samples.

Results

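The results concern 6 subunits of ligand-gated ion channels in the kidney of the rat: Gabrp, Grik2, Grik5, Grin2c, Grin3a and Chrna4. They are 6 of the 14324 genes that could be named on the array, and they were chosen with the lithium difference of Gabrp and Grik2 in view, so that all lithium differences of the 6 genes are given as a description without a test. Renal cortex and renal medulla of 12 male Wistar rats were measured on 24 Affymetrix arrays. The 6 lithium-treated rats (animals 6, 17, 18, 19, 21 and 22) received 40 mmol lithium/kg dry food for 7 days and 60 mmol/kg thereafter, for 6 months in all, and had a salt block. The 6 control rats (animals 1, 13, 15, 16, 29 and 30) received standard diet and tap water for the same 6 months, and no salt block is described for them, so that lithium and the salt block cannot be told apart. The age of the rats is not given in the sources used here. Whole tissue was homogenised, so that fewer cells of a type and less RNA per cell cannot be told apart.

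These proteins belong to 2 receptor superfamilies. Gabrp encodes the pi subunit of the GABA-A receptor, a chloride channel opened by gamma-aminobutyric acid (GABA), and Chrna4 encodes the alpha subunit of a nicotinic acetylcholine receptor that pairs with the beta subunit Chrnb2; both receptors are pentamers. Grik2 and Grik5 encode kainate-type glutamate receptor subunits and Grin2c and Grin3a encode subunits of the N-methyl-D-aspartate (NMDA) type, both tetramers. Grik2 can form a channel by itself, Grik5 needs another kainate subunit such as Grik1, Grik2 or Grik3, and the NMDA receptor needs Grin1. They are best known from synapses in the brain, while Gabrp is found largely in epithelia and reproductive tissues.

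Each of the 6 genes had 1 transcript cluster, the set of probes summarised for a gene: 10741947 for Gabrp, 10833910 for Grik2, 10719754 for Grik5, 10748891 for Grin2c, 10876734 for Grin3a and 10852428 for Chrna4. Values are log2 signal intensities, so that a difference of 1 is a doubling. A log2 signal of 6 served as the level below which a cluster was treated as dim, and a cluster entered a fit when at least 4 of 12 arrays reached 6. Gabrp, Grik2 and Grik5 passed in cortex and in medulla. Grik2 passed in cortex only through 4 lithium arrays, 3 of them with values of their own and the fourth that of animal 17, which holds the lithium mean. Grin2c, Grin3a and Chrna4 had all 4 group means under 6. Levels were not compared between genes, since each cluster has its own probes.

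Scan date had been removed from the values before deposit, which left the deviations of arrays that share a scan date summing to 0. Because of this the cortex array of lithium animal 17 held the lithium mean and no value of its own (largest difference 6.67e-05 on the log2 scale), and the lithium cortex group is given with SD over n = 5. The 29 and 30 control arrays share a scan group with lithium animals 21 and 22 in both tissues, so their deviations are linked in the same way. Array medians were 5.75 to 5.83 in cortex and 6.12 to 6.22 in medulla. Proximal tubule markers averaged 7.64 to 9.09 in control medulla and 10.52 to 10.98 in control cortex, as the tissue names imply. Over all clusters past the filter, 0.574% in cortex and 1.19% in medulla differed between lithium and control (limma with scan group, Benjamini-Hochberg adjusted p under 0.05).

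**Figure D1:**
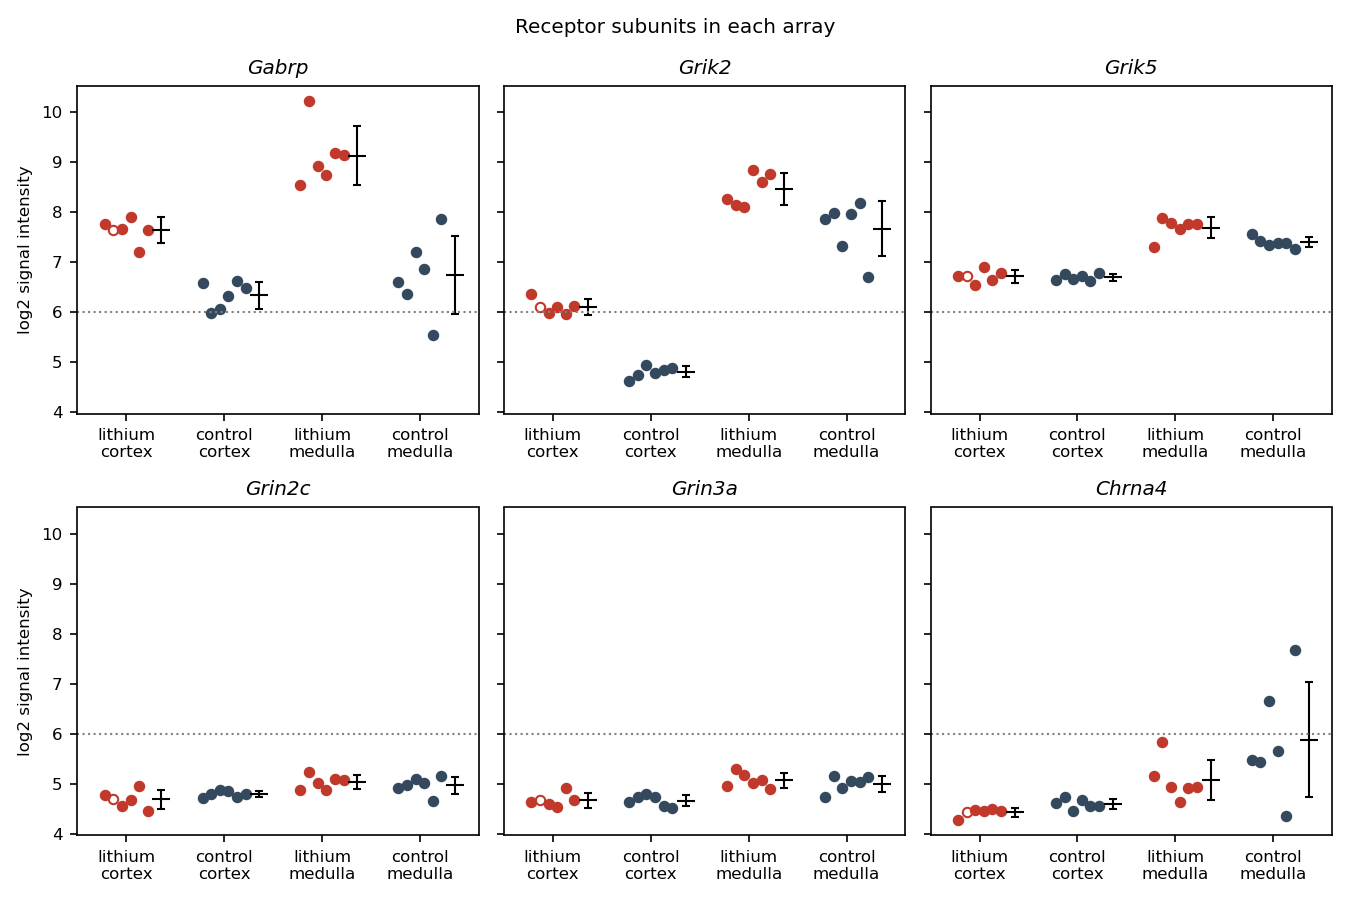
Log2 signal intensity (y axis) of the 6 subunits in each array, with lithium (red) left of control (grey-blue) in cortex and then in medulla; black marks are mean ± SD and the dotted line is a log2 signal of 6. Open circles are the cortex array of animal 17, which holds the group mean and is left out of the SD. Gabrp in both tissues and Grik2 in cortex had every lithium array above every control array, while Grin2c and Grin3a lay under 6 throughout.

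The pi subunit gene Gabrp was the subunit with the largest lithium difference in the medulla, and it was higher in lithium-treated rats in both tissues. In medulla, Gabrp had log2 signals of 8.55, 10.23, 8.93, 8.74, 9.19 and 9.14 in lithium animals 6, 17, 18, 19, 21 and 22, against 6.60, 6.37, 7.21, 6.86, 5.55 and 7.86 in control animals 1, 13, 15, 16, 29 and 30. The lowest lithium array lay 0.69 above the highest control array, so the groups did not overlap. The group means were 9.13 ± 0.589 in lithium and 6.74 ± 0.785 in control medulla (SD, n = 6 each), a log2 fold change of 2.39 (SE 0.379) or 5.23-fold. Within the 3 scan groups the medulla difference was 2.91, 1.80 and 2.46.

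In cortex, Gabrp had log2 signals of 7.76, 7.67, 7.91, 7.20 and 7.64 in lithium animals 6, 18, 19, 21 and 22, against 6.58, 5.98, 6.06, 6.32, 6.63 and 6.49 in control animals 1, 13, 15, 16, 29 and 30. The groups were again separate, with a gap of 0.57. The means were 7.64 ± 0.263 in lithium (n = 5) and 6.34 ± 0.271 in control cortex (n = 6), a log2 fold change of 1.29 (SE 0.161) or 2.45-fold. In the 3 scan groups with lithium and control animals the cortex differences were 1.48, 1.60 and 0.86. All 4 Gabrp means lay above 6, and 1 control array in each tissue lay under it. The medulla difference exceeded the cortex difference by 1.10 (SE 0.454).

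In order of level, Gabrp was highest in lithium medulla, then in lithium cortex, control medulla and control cortex. Only the first step, of 1.49, separated all arrays; lithium cortex and control medulla differed by 0.89 with overlapping arrays, and control medulla and control cortex by 0.40, which is less than the SD of the control medulla group. The control medulla group had the widest spread of the 4 for Gabrp, between animal 29 at 5.55 and animal 30 at 7.86.

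Grik2, the kainate receptor subunit that can act alone, showed its larger lithium difference in the cortex. Here log2 signals were 6.37, 5.99, 6.10, 5.97 and 6.12 in lithium animals 6, 18, 19, 21 and 22, against 4.62, 4.74, 4.94, 4.79, 4.84 and 4.89 in control animals 1, 13, 15, 16, 29 and 30. The lowest lithium array lay 1.03 above the highest control array. Means were 6.11 ± 0.156 in lithium (n = 5) and 4.81 ± 0.117 in control cortex (n = 6), a log2 fold change of 1.31 (SE 0.102) or 2.47-fold, and 1.69, 1.18 and 1.18 within the scan groups. The control cortex mean is under 6, in the range of the dim clusters, so this fold change sets a lithium level just around 6 against a dim one.

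In medulla, where Grik2 was well above 6 in all 12 arrays, the groups overlapped. Lithium animals 6, 17, 18, 19, 21 and 22 had 8.27, 8.14, 8.11, 8.85, 8.60 and 8.77, against 7.87, 7.98, 7.33, 7.96, 8.18 and 6.70 in control animals 1, 13, 15, 16, 29 and 30. In 4 of 6 lithium arrays Grik2 exceeded every control array. The means were 8.46 ± 0.324 in lithium and 7.67 ± 0.553 in control medulla (SD, n = 6 each), a log2 fold change of 0.79 (SE 0.253) or 1.73-fold. Within scan groups the difference was 0.28, 0.84 and 1.24, and the medulla difference fell below the cortex difference by 0.52 (a medulla-minus-cortex value of -0.52, SE 0.296).

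The promoters of Grik2 and Grik5 are shown because these kainate subunits differ in the data: Grik2 differed between diets and tissues and Grik5 mostly between tissues. The Grik5 difference of 0.69 between control tissues lay close to the median of 0.51 over all clusters. A link between these sequences and the differences was not tested. The sequences are 300 bases from 250 before to 50 after the start of the gene, from RefSeq on the rat build GRCr8, 5′ to 3′ on the gene's own strand. Of the 6 genes, 5 matched this table; Gabrp was not matched. The Grik2 promoter is at chr20:54415234-54415533 (minus strand) and the Grik5 promoter at chr1:89794860-89795159 (minus strand). Capitals mark a CCAAT motif read on the opposite strand in Grik2 and GGGCGG motifs on either strand in Grik5.
Grik2: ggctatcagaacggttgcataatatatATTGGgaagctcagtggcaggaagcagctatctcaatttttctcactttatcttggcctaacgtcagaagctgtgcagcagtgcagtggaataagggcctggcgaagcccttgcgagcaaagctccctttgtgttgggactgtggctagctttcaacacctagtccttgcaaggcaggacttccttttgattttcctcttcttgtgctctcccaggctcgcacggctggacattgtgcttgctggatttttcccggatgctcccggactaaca
Grik5: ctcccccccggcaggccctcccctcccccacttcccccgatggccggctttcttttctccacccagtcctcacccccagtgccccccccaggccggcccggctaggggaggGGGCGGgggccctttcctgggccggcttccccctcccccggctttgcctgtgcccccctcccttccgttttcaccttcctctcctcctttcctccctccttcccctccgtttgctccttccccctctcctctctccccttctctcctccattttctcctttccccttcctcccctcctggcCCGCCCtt

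Both strands were searched for the TATA box (TATAAA), the CCAAT box, the GC box (GGGCGG), the AP-1 motif (TGANTCA) and the TCF motif (CTTTGAT). Grik2 held CCAAT with its first base at -223 from the start and had 50.3% G and C. Grik5 held GGGCGG at -139 and at 43 and had 69% G and C. CCAAT occurs in 37.5% and GGGCGG in 33.1% of 33469 promoters of this length, TATAAA in 14.2%, TGANTCA in 7.33% and CTTTGAT in 3.63%. These matches describe letters of the sequence and not binding sites.

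Grik5, the kainate subunit that needs a partner, was at the same level in both diets in cortex and slightly higher with lithium in medulla. Cortex means were 6.72 ± 0.132 in lithium (n = 5, 6.55 to 6.90) and 6.70 ± 0.0659 in control rats (n = 6), a log2 fold change of 0.02 (SE 0.0894), with overlapping arrays. In medulla, lithium animals 6, 17, 18, 19, 21 and 22 had 7.30, 7.89, 7.78, 7.67, 7.76 and 7.76, against 7.56, 7.43, 7.34, 7.39, 7.39 and 7.27 in control animals 1, 13, 15, 16, 29 and 30. Lithium animal 6 was the exception, as the other 5 of 6 lithium arrays exceeded every control array. The means were 7.69 ± 0.206 in lithium and 7.40 ± 0.0973 in control medulla (SD, n = 6 each), a log2 fold change of 0.30 (SE 0.110), or 1.23-fold. Within scan groups the values were 0.10, 0.36 and 0.43, and all 4 group means lay above 6.

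The NMDA subunits were dim in every group. Grin2c averaged 4.69 ± 0.193 in lithium cortex (n = 5), against 4.79 ± 0.0617 in control cortex (n = 6), and 5.03 ± 0.141 in lithium medulla, against 4.97 ± 0.173 in control medulla (n = 6 each). Its log2 fold changes were -0.11 (SE 0.102) and 0.06 (SE 0.108), from the fit without a filter. Grin3a averaged 4.67 in lithium and 4.66 in control cortex, and its medulla arrays lay between 4.90 and 5.30 in lithium and between 4.73 and 5.16 in control rats, with log2 fold changes of 0.01 (SE 0.0996) and 0.07 (SE 0.106). No array of either gene reached 6, and lithium and control arrays overlapped in both tissues. Grin1, the obligatory partner of both, was also dim, with its highest array at 5.12.

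Chrna4, a nicotinic subunit, was dim in cortex, with 4.43 ± 0.0907 in lithium (n = 5) and 4.60 ± 0.102 in control rats (n = 6), a log2 fold change of -0.17 (SE 0.0881). In control medulla it was spread widely. Lithium animals 6, 17, 18, 19, 21 and 22 had 5.15, 5.83, 4.93, 4.64, 4.92 and 4.94, against 5.48, 5.43, 6.65, 5.66, 4.36 and 7.68 in control animals 1, 13, 15, 16, 29 and 30. No lithium array and 2 of 6 control arrays reached 6, and the lithium arrays lay inside the control range. The means were 5.07 ± 0.406 in lithium and 5.88 ± 1.15 in control medulla (SD, n = 6 each), both under 6. The log2 fold change was -0.81 (SE 0.459), and -0.36 without control animal 30 and -1.19 without control animal 29. Within scan groups the values were 0.03, -1.37 and -1.09.

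Counted over the 6 genes, lithium and control arrays were separate for 2 genes in cortex (Gabrp and Grik2, both higher) and 1 gene in medulla (Gabrp, higher). Over all 28894 clusters, separation with lithium higher occurred in 1.07% in cortex and 1.72% in medulla. The genes were chosen from this contrast, so the counts are a description.

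**Figure D2:**
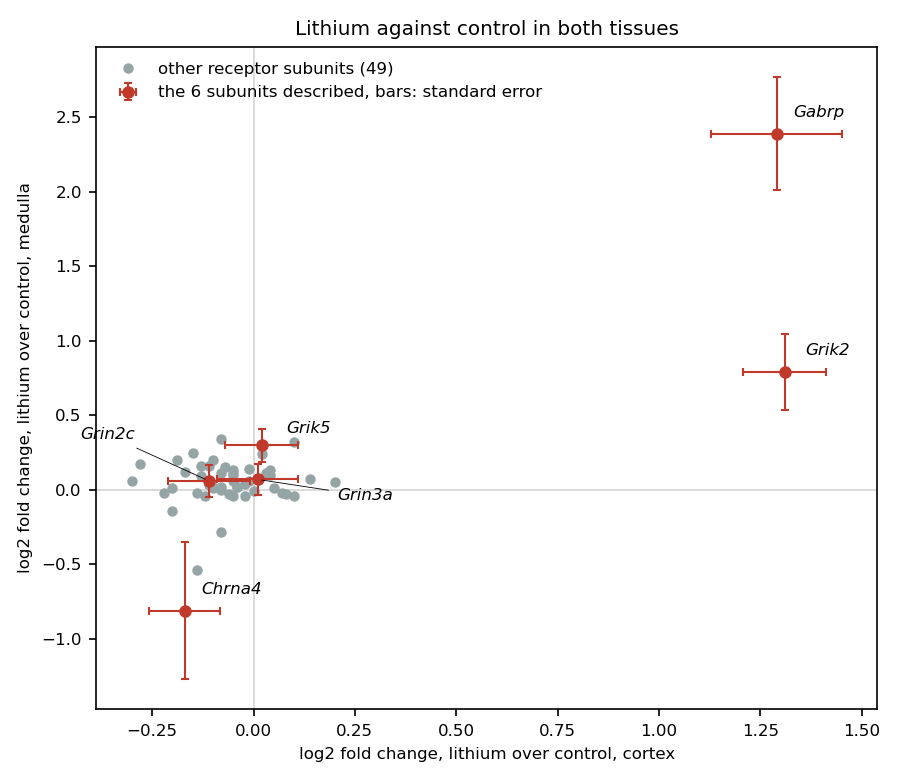
Log2 fold change of lithium over control in cortex (x axis) and medulla (y axis) for the 6 subunits described (red, bars are standard errors) and 49 other subunits of ligand-gated channels (grey), including dim ones. Gabrp and Grik2 lie to the right at 1.29 and 1.31 in cortex, while the other subunits lie between -0.30 and 0.20 in cortex and between -0.54 and 0.34 in medulla.

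The wider receptor family was mostly dim in the kidney. Of 54 other subunits of GABA-A, glutamate, nicotinic, glycine and serotonin-gated channels, 49 were measured and 39 of these lay under 6 in all 24 arrays. In cortex 2 passed the filter (Grid1 and Chrnb4) and in medulla 6 (Gria3, Grid1, Chrnb1, Chrnb2, Chrnb4 and Chrne). In limma none of them was called in either tissue, with 0 at an unadjusted p under 0.05, and 0 were called in any alternative run. Over all clusters tested, 0.574% in cortex and 1.19% in medulla were called, and 7.54% and 19.6% had an unadjusted p under 0.05. With so few subunits tested, the absence of calls says little about the family. Their median log2 fold change, dim clusters included, was -0.07 in cortex (-0.30 in Gabra3 to 0.20 in Chrna10) and 0.06 in medulla (-0.54 in Chrna3 to 0.34 in Grin2a), beside -0.02 and 0.02 over all clusters without a filter.

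Of the partner subunits, Gabrb2, which forms GABA-A receptors with alpha subunits, and the kainate subunits Grik1 and Grik3 lay under 6 in every array. Chrnb2, the partner of Chrna4, had means of 6.54 ± 0.222 in lithium and 6.29 ± 0.26 in control medulla (SD, n = 6 each), a log2 fold change of 0.25 with an adjusted p of 0.372 in limma. Gria3, an AMPA-type glutamate subunit, had 6.49 ± 0.23 in lithium and 6.17 ± 0.275 in control medulla (adjusted p = 0.268 in limma).

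Genes that make, break down or take up the ligands gave no call either. Of 25 listed, 19 were measured and 6 in cortex and 7 in medulla were tested in limma, with 0 called, and 0 in cortex and 2 in medulla at an unadjusted p under 0.05. Of all clusters tested, 7.54% in cortex and 19.6% in medulla had an unadjusted p under 0.05, and 0.574% and 1.19% were called. The median log2 fold change was -0.02 in cortex and -0.38 in medulla, beside 0.01 and -0.01 over all clusters tested. Abat, the enzyme that breaks down GABA, had means of 6.30 ± 0.368 in lithium and 7.15 ± 0.385 in control medulla (SD, n = 6 each), a log2 fold change of -0.86 (adjusted p = 0.0749 in limma). Dao, which oxidises D-amino acids such as the NMDA co-agonist D-serine, had 7.07 ± 0.927 in lithium and 8.14 ± 0.908 in control medulla (-1.07, adjusted p = 0.266). Slc6a13, a GABA transporter, had 5.89 ± 0.417 in lithium and 6.56 ± 0.824 in control medulla (-0.67, adjusted p = 0.323). All 3 had their higher levels in cortex, and the proximal tubule markers beside them averaged 7.00 to 8.31 in lithium and 7.64 to 9.09 in control medulla. Their part in these differences was not tested.

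Among 24 auxiliary and scaffold proteins, 12 in cortex and 15 in medulla were tested and 0 were called, with 1 and 4 at an unadjusted p under 0.05 in limma, beside the same 7.54% and 19.6% of all clusters. The median was -0.05 in cortex and -0.13 in medulla. Neto2, an auxiliary subunit of kainate receptors, had 6.12 ± 0.175 in lithium (n = 5) and 6.47 ± 0.159 in control cortex (n = 6), a log2 fold change of -0.35 (adjusted p = 0.44). In medulla it had 7.95 ± 0.623 in lithium and 8.50 ± 0.981 in control rats (-0.55, adjusted p = 0.517). Lynx1 and Lypd1, relatives of each other that bind nicotinic receptors, had log2 fold changes of -0.45 and -0.97 in medulla (adjusted p = 0.326 and 0.143). Dlg4 went the other way and had the smallest adjusted p of this list in medulla. Its means there were 6.72 ± 0.195 in lithium and 6.34 ± 0.199 in control rats (0.39, adjusted p = 0.139 in limma). Neto1, the relative of Neto2, lay under 6 in every array.

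Marker genes of the cell types that the tissue can hold were read beside these values. The 13 measured nerve and Schwann cell markers were low throughout, with a list mean of 5.12 to 5.36 in lithium and 5.12 to 5.26 in control medulla and of 4.98 to 5.34 in lithium and 5.04 to 5.35 in control cortex, and 0 were called in either tissue. Intercalated cell markers averaged 9.20 to 10.02 in lithium and 6.46 to 9.06 in control medulla, where 3 of 9 tested were higher (Atp6v1g3, Oxgr1 and Slc4a9). Of 9 principal cell markers in cortex 4 were lower (Scnn1g, Scnn1b, Hsd11b2 and Aqp2) and Aqp4 was higher, while 0 were called in medulla. Krt19, a keratin of the papilla and urothelium list, was higher in both tissues (log2 fold change 2.65 in medulla and 3.50 in cortex). It was the only call of that list, of 5 tested in medulla and 2 in cortex. Of 6 immune cell genes tested in medulla, Cd68 and Cd3e were higher, and 0 of the proximal tubule or myofibroblast lists were called. In medulla these 2 lists had median log2 fold changes of -0.61 and 0.44. There 6 of 12 and 3 of 4 tested had an unadjusted p under 0.05 in limma, beside 19.6% of all clusters. In cortex the medians were -0.05 and 0.26, with 1 of 12 and 1 of 4 under 0.05, beside 7.54%. Over all clusters tested, 0.574% in cortex and 1.19% in medulla were called. In the thick ascending limb and distal tubule list, the calcium channel gene Trpv5 was the only call in medulla, where 7 were tested with a median log2 fold change of -0.60, and 0 of 8 were called in cortex, with a median of -0.31. With each of 12 animals left out in turn, Krt19 in both tissues, Trpv5, Aqp2 and Aqp4 stayed called every time. The calls stayed in 10 of 12 for Hsd11b2, 9 for Slc4a9, 6 for Scnn1g, 5 for Atp6v1g3, 4 for Oxgr1, 3 for Scnn1b and Cd68 and 2 for Cd3e, with the highest adjusted p at 0.15 in limma. Control means were under 6 for Krt19 in cortex (5.80, against 9.30 in lithium) and for Trpv5 (4.98, against 7.53) and Cd3e (5.53, against 6.21) in medulla. These 3 calls set lithium against a dim level, and their entry into the fit may rest on the lithium arrays. Leaving out animals does not check this. The part of these cell types in the Gabrp and Grik2 differences was not tested.

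The spread among control medulla arrays ran through several genes and marker lists at the same time. Control animal 30 had the highest Gabrp (7.86) and Chrna4 (7.68) and the lowest Grik2 (6.70) of the control group, together with the lowest proximal tubule (7.64), thick ascending limb (6.85) and intercalated cell (6.46) list means. Control animal 29 had the lowest Gabrp (5.55) and Chrna4 (4.36) and the highest Grik2 (8.18), with list means of 9.09, 8.72 and 9.06. As deviations from the control mean, Gabrp was at 1.12 in animal 30 and -1.19 in animal 29, while lithium animals 21 and 22 of the same scan group were at 0.06 and 0.01. The removal of scan date makes these 4 deviations sum to about 0, so animals 29 and 30 are mirror images in part by construction.

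Among lithium rats, animal 17 had the highest Gabrp (10.23) and Chrna4 (5.83) and also the lowest proximal tubule (7.00) and thick ascending limb (6.35) list means of the medulla. Whether the cut of the tissue moved with these genes was not tested. Without control animals 29 and 30, or without lithium animal 17 and control animal 30, the log2 fold change of Gabrp in medulla was 2.35 and 2.39, and over all single left-out animals it lay between 2.09 and 2.67. With the same 2 removals Grik2 in medulla was at 0.56 and 0.60, against 0.79 with all animals. Chrna4 was at -0.67 and -0.51, against -0.81.

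**Figure D3:**
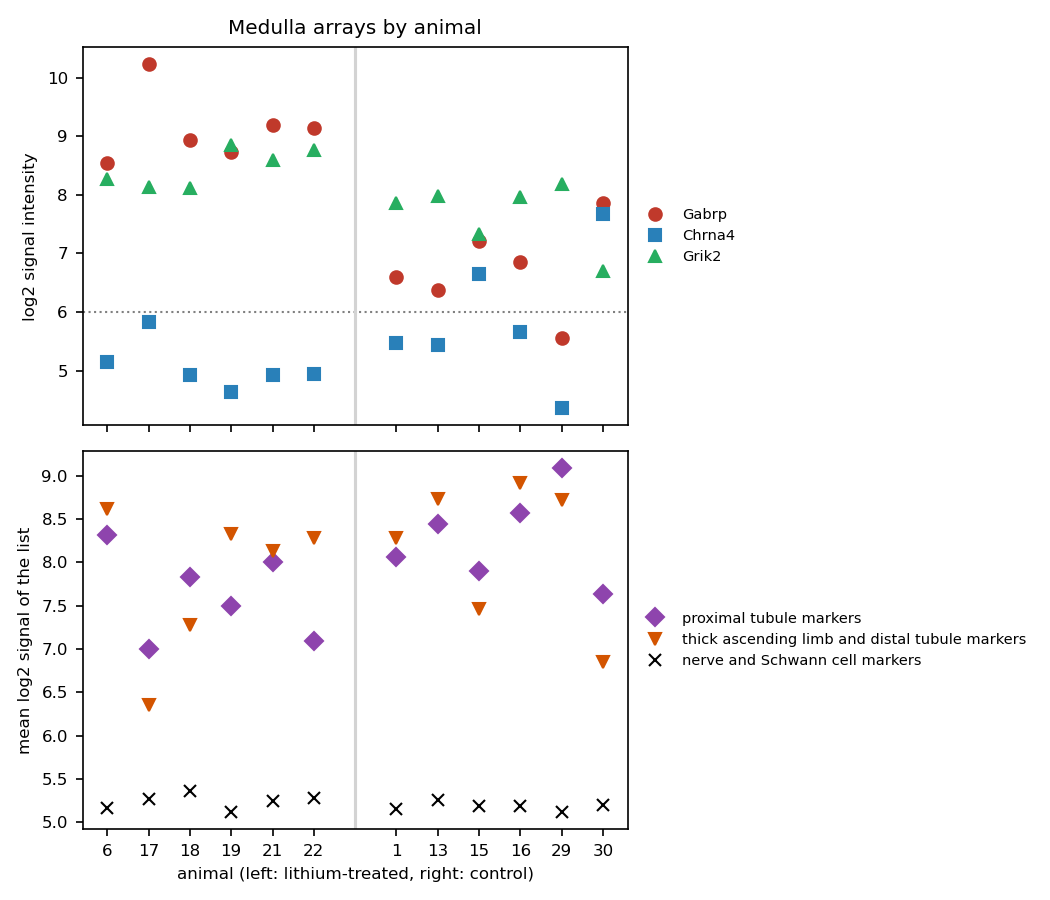
Medulla arrays by animal (x axis, lithium left and control right): log2 signal of Gabrp, Chrna4 and Grik2 (top, dotted line at 6) and mean log2 signal of 3 marker lists (bottom). Control animal 30 combines a high Gabrp (7.86) and Chrna4 (7.68) with a low thick ascending limb list mean (6.85), and lithium animal 17 combines the highest Gabrp (10.23) with the lowest one (6.35).

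The comparison of tissues in control rats was not used to choose the genes, although it shares the control arrays with the lithium comparison. Grik2 had a higher signal in control medulla than in control cortex, with 7.67 ± 0.553 against 4.81 ± 0.117 (SD, n = 6 each), in 6 of 6 animals. Control medulla arrays lay between 6.70 and 8.18 and control cortex arrays between 4.62 and 4.94. Grik2 entered this fit only through its medulla arrays, with 0 of 6 control cortex arrays at 6, so the difference of 2.86 on the log2 scale (SE 0.205) is given without a test and sets the medulla against a dim level. Most clusters were brighter in medulla, by a median of 0.51, and 76.2% of 15579 clusters were called, 67.2% as higher and 8.98% as lower. With arrays centred on their medians the median difference was 0.15 and 58.6% were called, 38.4% as higher and 20.2% as lower, and the Grik2 difference was then 2.50.

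Grik5 was also higher in control medulla, with 7.40 ± 0.0973 against 6.70 ± 0.0659 in control cortex (SD, n = 6 each), in 6 of 6 animals. Its difference of 0.69 (SE 0.0956, 95% interval 0.49 to 0.89, adjusted p = 2.83e-06 in limma) lay close to the median of all clusters, and was 0.34 after centring (adjusted p = 0.00403).

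Gabrp was 6.74 ± 0.785 in control medulla and 6.34 ± 0.271 in control cortex (SD, n = 6 each), a difference of 0.40 (SE 0.314, 95% interval -0.26 to 1.06, adjusted p = 0.255 in limma) that was 0.04 after centring. It was higher in medulla in 5 of 6 animals, control animal 29 being the exception. Without that animal the difference was 0.77 (adjusted p = 0.0222 in limma), in a fit that called 11360 of 15365 clusters. Without control animal 30 the difference was 0.15 (adjusted p = 0.652) and without control animal 15 it was 0.21 (adjusted p = 0.605). The dim genes gave differences of 0.18 (SE 0.101) in Grin2c, 0.34 (SE 0.0984) in Grin3a and 1.28 (SE 0.363) in Chrna4. In lithium-treated rats the medulla exceeded the cortex by 1.49 in Gabrp, 2.35 in Grik2 and 0.97 in Grik5.

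**Figure D4:**
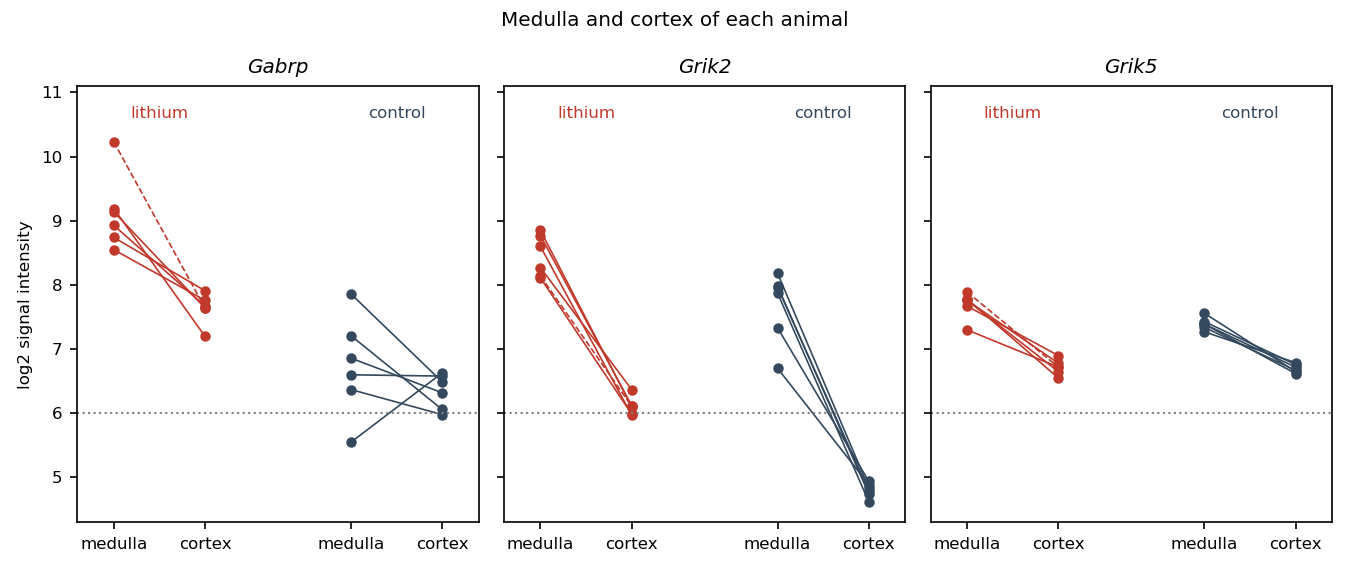
Log2 signal (y axis) of Gabrp, Grik2 and Grik5 in medulla and cortex of the same animal (lines), for lithium-treated rats (red) and control rats (grey-blue); the dotted line is a log2 signal of 6 and the dashed line is animal 17. All 6 control animals had higher Grik2 and Grik5 in medulla, while Gabrp was lower in the medulla of control animal 29.

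The genes whose values lay nearest to Gabrp over the 24 arrays, each array taken as its deviation from the control mean of its tissue, were Cdkn1a, Pkib, Pdlim1, Trpv6 and Mmp2. Their root mean square differences from Gabrp were 0.387, 0.524, 0.663, 0.696 and 0.696 on the log2 scale, over 9653 genes compared, beside a root mean square of 1.44 for Gabrp itself. These distances include the lithium difference of Gabrp, so the nearest genes have similar lithium fold changes by construction. Cdkn1a encodes a cell cycle inhibitor and had log2 fold changes of 1.96 in medulla and 1.13 in cortex. Pkib encodes an inhibitor of protein kinase A and had 2.03 and 0.92. Trpv6, a calcium channel of epithelia, had 1.61 and 0.58, and Mmp2, a gelatinase, had 2.17 and 1.79. Pdlim1 had 1.31 in medulla and 1.48 in cortex, so that, unlike Gabrp, its larger value was in cortex.

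The genes nearest to Grik2 were Cd44, St6galnac2, Dclk1, Dkk3 and Fgl2, with root mean square differences of 0.317, 0.338, 0.368, 0.376 and 0.404, beside 0.821 for Grik2 itself. Cd44, the receptor of hyaluronan, had log2 fold changes of 1.14 in medulla and 1.24 in cortex. Dclk1, a kinase that binds microtubules, had 1.09 and 1.06, and Dkk3, a secreted glycoprotein, had 1.07 and 1.48. St6galnac2 had 1.18 and 0.93, and Fgl2 had 0.70 and 0.83. As with Gabrp, the distances include the lithium difference, so similar fold changes follow from the choice. The 24 arrays also share diets, animals and scan groups, so this likeness is a description only.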

How the data were processed

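RNA of renal cortex and medulla from 12 rats was hybridised to 24 Affymetrix arrays. The values deposited by the authors are log2 signal intensities; per the labels and the methods, RMA was run in Partek on the build rn4 and scan date was removed by analysis of variance in each tissue, which lowers the spread left between arrays. The methods name a gene array in one place and an exon array in another. Gene names came from the platform annotation: 15097 of 28894 clusters had 1 symbol, 323 had several and 13474 had none, and the cluster with the highest mean was used. Scan groups were recovered from the values. The fits used limma 3.58.1 in R 4.3.3 (lmFit and eBayes) with diet and scan group within each tissue, on clusters that reached a log2 signal of 6 in 4 or more of the 12 arrays, and Benjamini-Hochberg adjustment over all clusters tested. Residual degrees of freedom were 7 in cortex and 8 in medulla. Control medulla and control cortex were compared over all 24 arrays with scan group within tissue. The fits were also run on simulated arrays with independent noise in each cluster, which does not mimic spread shared by genes or by arrays of an animal. Its outcome is not reported here. The number of arrays limits the precision.

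The genes, the gene lists and the tests were chosen with earlier results of these data known. Besides the 6 genes, the rule named up to 4 genes a list, direction and tissue with the largest fold change past an adjusted p of 0.05, known partner subunits, and the 5 genes nearest to each subunit with an absolute log2 fold change over 1. Gabra3, Chrna10, Chrna3, Grin2a, Gria3, Abat, Dao, Slc6a13, Neto1, Neto2, Lynx1, Lypd1 and Dlg4 were named after their values were seen, as were the subunits listed by name because they passed the filter. Alternatives were the fit without scan group, no filter, a filter on the mean, arrays centred on their medians, repeated quantile normalization, the methods' 2-way analysis of variance, the mean of a gene's clusters, control arrays only, animal as a block, and each animal left out. Leaving out animals 29 and 30, or 17 and 30, was added after seeing the data.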

Additional observations from a re-analysis of the deposited data

Results flagged for a closer look

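In lithium cortex, animal 6 had the lowest Chrna4 log2 signal (4.27), set apart from the nearest lithium animal (4.45) by 0.825 of the group's whole range, above the limit of 0.71 for 5 arrays. All of these values lie under 6. It was 1 of 24 groups examined, and chance marks about 1 in 20 when values are independent. Animal 6 shared its cortex scan group with control animals 1 and 13 only. The removal of scan date ties its deviation to theirs, so its value is not independent and that rate need not hold.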

How the results depend on the processing

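Of 422 alternative values, 396 were taken as unchanged, 25 counts moved and 1 value crossed the threshold. That value was the Gabrp difference between control tissues without control animal 29 (adjusted p = 0.0222 in limma, against 0.255). Differences were unchanged when they kept direction and side of the threshold or moved by less than the spread. Counts had a looser limit: 54 calls in cortex without lithium animal 18, against 79, were unchanged. Counts of 0 against 0 for the few other subunits tested are also among the 396. Of the lithium differences of the 6 genes none moved by more than its spread, the larger of the group SDs. The fit without scan group, the filters, the methods' test and the mean of clusters cannot change these differences, so they are no check. In Chrna4 in medulla the spread was 1.15, a wide limit, and the difference ran from -1.19 to -0.36 over single left-out animals. The differences of Gabrp were 1.21 to 1.42 in cortex and 2.09 to 2.67 in medulla over single left-out animals, and those of Grik2 were 1.18 to 1.35 and 0.55 to 0.92.

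The number of clusters called in limma moved most. In cortex it was 79, against 288 without scan group in the fit, 14 with the methods' test and 33 to 88 with 1 animal left out. In medulla it was 190, against 1052 without scan group, 37 with the methods' test, 49 to 1061 with 1 animal left out (1061 without lithium animal 6), 27 without control animals 29 and 30 and 48 without lithium animal 17 and control animal 30. At the unadjusted threshold of the methods, with a fold of 1.5, the methods' test called 107 clusters higher and 36 lower in cortex and 301 higher and 257 lower in medulla. Centring the arrays gave 101 higher and 96 lower in medulla, against 133 and 57. Ligand-handling and auxiliary genes called in medulla were 0, against 1 without scan group (Abat) and 0 to 2 with 1 animal left out; the causes were not tested.

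Gabrp in control medulla against control cortex differed by 0.40, against 0.15 to 0.77 with 1 animal left out and 0.77 without control animal 29. With animal as a block the difference was 0.40 (adjusted p = 0.224 in limma), and the block changed no call for Gabrp or Grik5. Deviations of cortex and medulla from the same animal correlated between -0.0681 and 0.417, over 0.1 in 6 of 11 animals. Grin2c and Grin3a in all arrays, Chrna4 in all but 2 control medulla arrays, and Grik2 in control cortex were dim, so that low expression there could not be told from background.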
